A study of Mus musculus with 8 samples.

Results

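CC chemokines are small secreted proteins that attract leukocytes, and 9 of their genes were followed here in mouse embryonic fibroblasts that had received growth hormone or none: Ccl2, Ccl5, Ccl7, Ccl8, Ccl9, Ccl11, Ccl17, Ccl20 and Ccl25. The members were all probe sets whose platform annotation gives a single gene symbol that is among these 9 names, which gave 11 probe sets for 9 of the 18193 genes named in this way. All cells were fibroblasts of the C57BL/6 strain that lacked Stat5 and had been given a mutant STAT5 by retroviral infection. STAT5 is the transcription factor that the growth hormone receptor activates through the kinase JAK2. There were 4 groups of 2 arrays. EA cells carried a STAT5 with a change described in the labels as EE to AA in a binding domain, and were measured after growth hormone for 120 minutes and with no stimulation. YF cells carried a STAT5 with the change Y694F at its phosphorylation site, and were measured after growth hormone for 120 minutes and with no stimulation. Cells with unmutated STAT5 or an empty vector are not analysed here, and the sources used here do not say whether the infected cells were clones or pools. The duplicate arrays are biological replicates according to the submitters, who name no separate cultures, so p-values measure only the spread between these samples, which may be technical.

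The CC family is named for adjacent cysteines near the start of the mature protein. Its members bind G protein-coupled receptors on leukocytes, which migrate towards higher concentrations of the ligand. Fibroblasts are a known source of CC chemokines after stimulation with inflammatory cytokines or microbial products, and the transcription factor NF-kB is a known activator of several of the genes. Ccl2 and Ccl7 attract monocytes through Ccr2, Ccl8 and Ccl11 are encoded beside them, and Ccl20 attracts lymphocytes and dendritic cells through Ccr6. Ccl5 acts on T cells and monocytes, Ccl9 on myeloid cells through Ccr1, Ccl17 on T cells through Ccr4 and Ccl25 on thymocytes and gut-homing T cells through Ccr9.

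Levels are given as log2 expression values. Of the 45037 probe sets tested, 55.0% crowded together below a mean of 4, and values under this bound are called the low group. What a value there is worth is unknown, and any difference with a side in it has an uncertain size. Duplicate arrays correlated with each other at 0.996 to 0.998. The YF array with hormone of replicate 1 stood apart on the second principal component, which held 12.6% of the variance, with a score of -55.8, while its duplicate scored -3.28 and the YF arrays without hormone scored 25.8 and 32.6. Differences that rest on this array are therefore also given without it where a member or the brightest probe set of a named gene is described. Stat5a on its brightest probe set had 4.28 and 4.86 in EA cells with hormone, 4.83 and 5.36 in EA cells without, 8.51 and 7.87 in YF cells with hormone and 7.95 and 7.82 in YF cells without. EA cells were thus lower than YF cells, by 3.62 with hormone and 2.79 without (limma adjusted p = 0.0036 and 0.0071), and the difference with hormone was -3.30 (adjusted p = 0.014) without the array that stood apart. Which part of the construct the probe set reads is not analysed here. Of 10 fibroblast markers, 9 lay above the low group on at least some arrays, among them the collagen gene Col1a1 at 14.3 to 14.7. Lum lay in the low group on all 8 arrays, and Dcn did so by its means of 2.92 and 3.74 in EA cells with and without hormone. Without hormone, EA cells had less Dcn and less of the surface marker Thy1 than YF cells, by log2 differences of -3.67 and -5.03 (adjusted p = 0.0026 and 9.8e-05). All measured markers of T and NK cells (5), epithelial cells (5) and mast cells (4) lay in the low group, as did 4 of 5 endothelial markers. The exception, Tek, was lower in EA than YF cells, by 1.49 with hormone and 1.68 without (adjusted p = 0.016 and 0.011), and the difference with hormone was -1.62 (adjusted p = 0.046) without the array that stood apart. In bulk samples, fewer cells of a type and less RNA per cell cannot be told apart.

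Promoter windows from RefSeq (GRCm38.p6) reach from 250 bases before to 50 bases after a gene's start and were found for 5 of the 9 genes, namely Ccl8, Ccl9, Ccl17, Ccl20 and Ccl25. Those of Ccl20, whose RNA rose with hormone in both kinds of cells, of Ccl9, which was higher in EA than in YF cells with hormone, and of Ccl8, which stayed in the low group, are shown 5′ to 3′ along the gene's strand. Capitals mark matches to GGGNNNNNCC, an NF-kB pattern, or to TGANTCA, an AP-1 pattern, each read on both strands.
Ccl20, chr1:83116516-83116815, plus strand: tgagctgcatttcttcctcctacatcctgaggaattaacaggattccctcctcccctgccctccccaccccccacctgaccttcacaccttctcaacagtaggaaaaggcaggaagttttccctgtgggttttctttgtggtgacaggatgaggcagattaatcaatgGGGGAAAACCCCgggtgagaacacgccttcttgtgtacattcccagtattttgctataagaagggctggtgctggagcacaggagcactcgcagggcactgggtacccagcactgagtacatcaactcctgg
Ccl9, chr11:83578587-83578886, minus strand: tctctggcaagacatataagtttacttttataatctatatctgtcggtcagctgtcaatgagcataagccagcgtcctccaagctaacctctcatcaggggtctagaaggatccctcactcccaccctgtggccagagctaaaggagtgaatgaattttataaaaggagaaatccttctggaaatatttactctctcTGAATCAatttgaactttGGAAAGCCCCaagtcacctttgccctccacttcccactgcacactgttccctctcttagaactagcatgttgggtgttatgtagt
Ccl8, chr11:82114935-82115234, plus strand: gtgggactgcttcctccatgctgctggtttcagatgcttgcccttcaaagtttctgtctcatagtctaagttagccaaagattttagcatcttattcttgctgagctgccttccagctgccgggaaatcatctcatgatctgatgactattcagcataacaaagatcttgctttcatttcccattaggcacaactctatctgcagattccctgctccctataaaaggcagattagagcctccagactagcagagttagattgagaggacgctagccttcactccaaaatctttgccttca
In the Ccl20 window the capitals run from -82 to -71 relative to the start and hold 4 overlapping NF-kB matches, counted per strand. The Ccl9 window holds an AP-1 match from -53 to -47, which reads the same on either strand and so counts as 2, and an NF-kB match from -35 to -26 on the strand opposite to the gene. The Ccl8 window and the 2 windows of Ccl25 hold no match to either pattern or to TTCNNNGAA, a STAT pattern. The Ccl17 window holds the STAT pattern from -99 to -91. These letters are common. Of 32851 mouse windows of this length, 50.8% hold the NF-kB pattern, 7.81% the AP-1 pattern and 8.30% the STAT pattern. A match describes the letters and is not evidence of binding.

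The question of how each mutant responds to growth hormone was addressed by comparing cells with and without it. In EA cells Ccl2, Ccl7 and Ccl20 rose, and in YF cells Ccl7 and Ccl20 rose. No member fell in either. In EA cells 3 of the 11 probe sets were higher with hormone at a limma adjusted p under 0.05 and 0 were lower, against 0.0933% of all probe sets higher and 0.0422% lower. In YF cells 2 of 11 were higher and 0 lower, against 0.129% of all higher and 0.0511% lower. The median difference of the 9 genes was 1.14 in EA cells and 0.32 in YF cells, and over all probe sets it was 0.03 and -0.04.

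**Figure D1:**
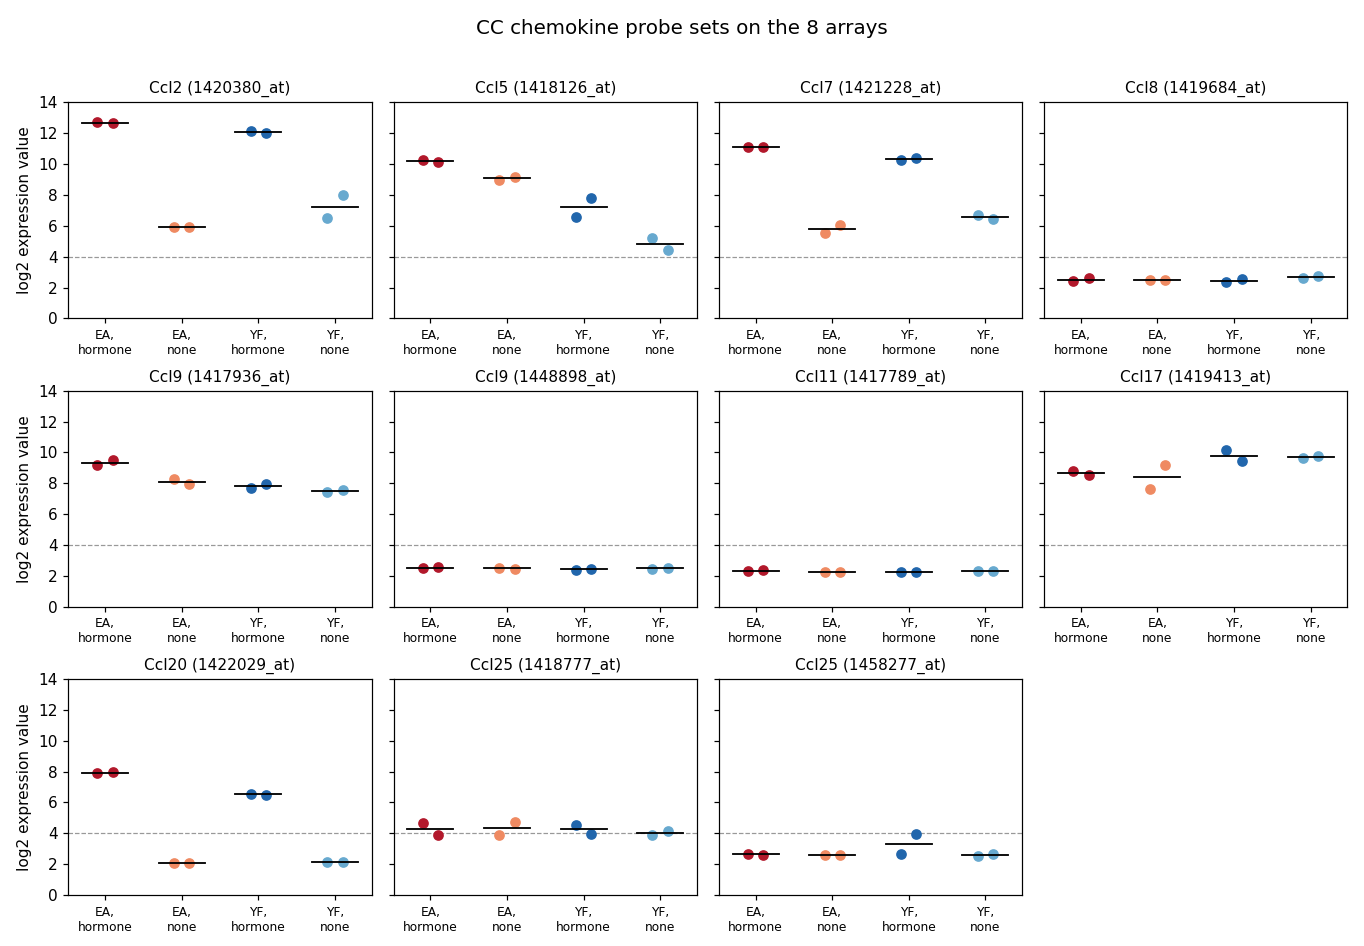
Log2 expression value (y axis) of each of the 11 CC chemokine probe sets on the 8 arrays, by group (x axis). Points are arrays, bars are means of 2 arrays, and the dashed line marks the bound of the low group at 4. Ccl2, Ccl7 and Ccl20 have higher values with hormone on all 4 arrays than without on all 4, while Ccl8, Ccl11 and the second Ccl9 probe set stay between 2.24 and 2.74.

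Ccl2, a monocyte attractant, had the largest difference among the members. Its probe set (1420380_at) had 12.72 and 12.68 in EA cells with hormone, against 5.92 and 5.94 in EA cells without. The arrays of each EA group lay within 0.1 of each other, and the groups were far apart. The difference was 6.77 (SE 0.47, n = 2 per group), a 109-fold rise with a limma adjusted p of 0.029. In YF cells Ccl2 had 12.14 and 12.0 with hormone, against 6.49 and 8.0 without. The groups did not overlap, but the YF arrays without hormone differed by over 1 log2 unit. The YF difference was 4.82 (SE 0.47, 95% interval 3.64 to 6.01) and did not pass, with a limma adjusted p of 0.051. It was 4.75 (adjusted p = 0.14) without the YF array with hormone of replicate 1. The 4 groups share a spread in the model, and both Ccl2 calls moved when single arrays were left out. Without either YF array that had no hormone, the SE fell to 0.063 for the EA difference of 6.77, which passed with an adjusted p of 0.00033, and the YF difference passed at 4.07 (adjusted p = 0.0047) without replicate 1 and at 5.58 (adjusted p = 0.0018) without replicate 2. Without any other single array the EA difference stayed at 6.74 to 6.79 and its adjusted p was 0.077 to 0.11.

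Ccl7, which also attracts monocytes, is the next protein-coding gene after Ccl2 on chromosome 11. Its probe set (1421228_at) had 11.13 and 11.12 in EA cells with hormone, against 5.53 and 6.04 in EA cells without. In YF cells it had 10.30 and 10.41 with hormone, against 6.69 and 6.46 without. The values with and without hormone did not overlap in either kind of cells. Ccl7 rose by 5.34 in EA cells (SE 0.18, n = 2 per group, limma adjusted p = 0.0039), which is 40.6-fold, and by 3.78 in YF cells (SE 0.18, adjusted p = 0.0095), which is 13.8-fold. The YF rise was 3.84 (adjusted p = 0.033) without the YF array with hormone of replicate 1. The YF call was lost, at 3.78 with an adjusted p of 0.067, without either EA array that had hormone, and at 3.67 with an adjusted p of 0.059 without replicate 2 of YF without hormone.

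Ccl11 and Ccl8 lie further along the same stretch of chromosome 11, in the order Ccl2, Ccl7, Ccl11, Ccl12, Ccl8 and Ccl1. Ccl11, an attractant of eosinophils through Ccr3, stayed between 2.24 and 2.37 on all 8 arrays. Ccl8, which in mice acts on Ccr8, stayed between 2.33 and 2.74. Both lay in the low group throughout, as did the non-members Ccl12 (2.04 to 2.16) and Ccl1 (1.92 to 2.04). The differences with hormone in Ccl11 were 0.05 in EA cells and -0.06 in YF cells, and those in Ccl8 were 0.01 and -0.23. None of these passed (limma adjusted p = 0.52 to 0.97 for the 2 members), and the YF differences were -0.04 and -0.12 without replicate 1 of YF with hormone. The values with a wide range thus belonged to Ccl2 and Ccl7, at the start of this order. The other stretch holds Ccl5, Ccl9, Ccl6, Ccl3 and Ccl4, of which Ccl6, Ccl3 and Ccl4 lay between 1.92 and 2.76.

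**Figure D2:**
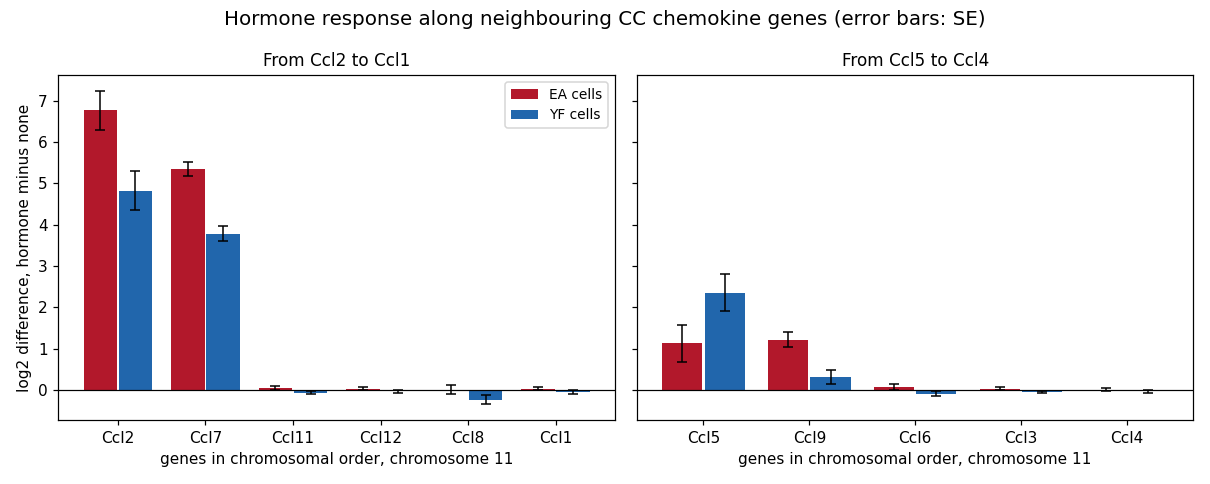
Log2 difference, hormone minus none (y axis), of the brightest probe set of each CC chemokine gene in its order on chromosome 11 (x axis, not to scale), in EA cells (left bar of each pair) and YF cells (right bar). Error bars are standard errors from limma with n = 2 arrays per group. The differences of Ccl2 and Ccl7 range from 3.78 to 6.77, and those of Ccl11, Ccl12, Ccl8 and Ccl1 from -0.23 to 0.05.

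Ccl20, the ligand of Ccr6, stood above the low group with hormone and inside it without, in both kinds of cells. Its probe set (1422029_at) had 7.91 and 7.96 in EA cells with hormone, against 2.10 and 2.11 in EA cells without. In YF cells it had 6.55 and 6.52 with hormone, against 2.15 and 2.13 without. The arrays of every group lay within 0.05 of each other. Ccl20 rose by 5.83 in EA cells (SE 0.03, n = 2 per group, limma adjusted p = 2.3e-06) and by 4.39 in YF cells (SE 0.03, adjusted p = 1.0e-05). These sizes, and the small SE, are uncertain because the side without hormone lay in the low group. With all values under 4 set to 4, the rises were 3.94 in EA cells and 2.53 in YF cells (adjusted p = 5.2e-05 and 0.00046). Leaving out the YF array with hormone of replicate 1 gave a YF rise of 4.37 (adjusted p = 0.00087).

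Ccl5, an attractant of T cells and monocytes, had 10.28 and 10.15 in EA cells with hormone, against 8.99 and 9.16 in EA cells without. In YF cells it had 6.60 and 7.79 with hormone, against 5.24 and 4.44 without. In both kinds of cells the arrays with hormone lay above those without, and the YF arrays differed more among themselves. The differences were 1.14 in EA cells (SE 0.45, 95% interval 0.0023 to 2.27, limma adjusted p = 0.87) and 2.35 in YF cells (SE 0.45, interval 1.22 to 3.49, adjusted p = 0.19), and neither passed. Without the YF array with hormone of replicate 1, the YF difference was 2.95 (adjusted p = 0.11).

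Ccl9, a ligand of Ccr1 found in rodents, had 9.18 and 9.49 on its brighter probe set (1417936_at) in EA cells with hormone, against 8.28 and 7.94 in EA cells without. In YF cells it had 7.68 and 7.96 with hormone, against 7.43 and 7.57 without. The EA groups lay 0.90 apart at their nearest arrays and the YF groups 0.11 apart. The difference was 1.23 in EA cells (SE 0.17, 95% interval 0.79 to 1.66, limma adjusted p = 0.17) and 0.32 in YF cells (SE 0.17, interval -0.12 to 0.76, adjusted p = 0.54), and neither passed. The YF difference was 0.46 (adjusted p = 0.79) without replicate 1 of YF with hormone. The other Ccl9 probe set (1448898_at) stayed in the low group at 2.41 to 2.60, so the 2 probe sets disagree on whether the gene was measured.

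Ccl17, the ligand of Ccr4, had 8.79 and 8.55 in EA cells with hormone, against 7.64 and 9.18 in EA cells without. In YF cells it had 10.16 and 9.41 with hormone, against 9.64 and 9.76 without. The values with and without hormone overlapped in both kinds of cells, and the differences were 0.26 in EA cells (95% interval -1.10 to 1.62) and 0.09 in YF cells (interval -1.27 to 1.45; limma adjusted p = 0.90 and 0.91). The YF difference was -0.29 (adjusted p = 0.95) without replicate 1 of YF with hormone. Ccl25, the ligand of Ccr9, lay near the bound of the low group on its brighter probe set (1418777_at), with 4.68 and 3.89 in EA cells with hormone, against 3.88 and 4.76 in EA cells without. In YF cells it had 4.56 and 3.98 with hormone, against 3.89 and 4.17 without. Neither Ccl25 difference passed (-0.04 in EA and 0.24 in YF cells, adjusted p = 0.98 and 0.70), and the YF value was -0.05 (adjusted p = 0.98) without replicate 1 of YF with hormone. The other Ccl25 probe set (1458277_at) lay at 2.54 to 2.64 on 7 arrays and at 3.94 on replicate 2 of YF with hormone. With replicate 1 of that group left out, this single array gave a hormone difference of 1.35 in YF cells (adjusted p = 0.023) against 0.70 (adjusted p = 0.55) with both arrays. The lone array is then assumed to vary like the other groups.

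**Figure D3:**
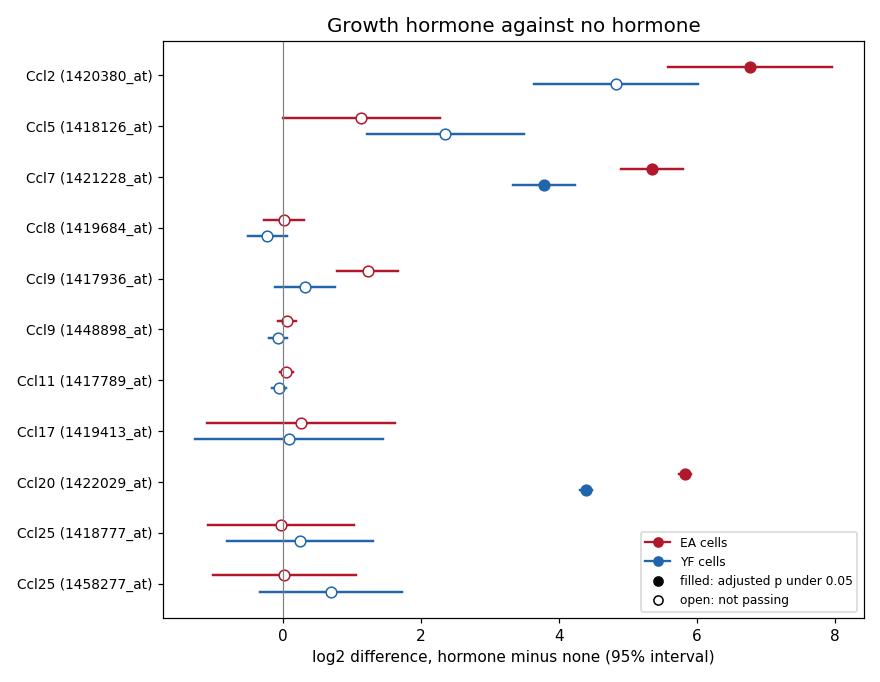
Log2 difference, hormone minus none (x axis), of the 11 CC chemokine probe sets (y axis) in EA cells (upper point of each pair) and YF cells (lower point). Lines are 95% intervals from limma with n = 2 arrays per group, and filled points passed at an adjusted p under 0.05. Filled points stand at 3.78 to 6.77 and belong to Ccl2 (EA cells only), Ccl7 and Ccl20.

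The difference between the responses, EA minus YF, was tested as the interaction of mutant and hormone. Ccl20 passed, at 1.44 (SE 0.05, 95% interval 1.32 to 1.57, limma adjusted p = 0.022), so its response was larger in EA than in YF cells by 2.72-fold. This is 1 of 11 member probe sets, against 0.00888% of all probe sets with a larger response in EA cells and 0.0111% with a smaller one. The side without hormone lay in the low group in both kinds of cells, and with values under 4 set to 4 the difference was 1.40 (adjusted p = 0.0068). Without the YF array with hormone of replicate 1 it was 1.46 (adjusted p = 0.040), and without any of the 4 arrays that had no hormone it stayed at 1.43 to 1.45 but missed the threshold, with an adjusted p of 0.054 to 0.096. It also missed the threshold with an intensity trend in the model (adjusted p = 0.34) and when only probe sets above the median level were tested (adjusted p = 0.073). The difference was 1.56 for Ccl7 (SE 0.25, 95% interval 0.93 to 2.20) and 1.94 for Ccl2 (SE 0.66, interval 0.27 to 3.62), and neither passed (adjusted p = 0.24 and 0.45). The Ccl9 difference was 0.91 (interval 0.29 to 1.53) and that of Ccl5 was -1.22 (interval -2.82 to 0.39), and these did not pass either (adjusted p = 0.42 and 0.45). With replicate 1 of YF with hormone left out, these differences were 1.51 for Ccl7, 2.02 for Ccl2, 0.77 for Ccl9 and -1.81 for Ccl5 (adjusted p = 0.36 to 0.74). The median difference over the 9 genes was 0.24, and over all probe sets it was 0.07.

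The mutants were then compared with each other at the same treatment. With hormone, Ccl5, Ccl9 and Ccl20 were higher in EA than in YF cells, and without hormone Ccl5 was. That is 3 of 11 member probe sets with hormone, against 4.37% of all probe sets higher in EA cells, and 1 of 11 without hormone, against 5.51%. No member passed as lower in EA cells, as 5.8% of all probe sets did with hormone and 5.25% without. The median over the 9 genes was 0.63 with hormone and -0.05 without, against 0.06 and -0.02 over all probe sets.

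Ccl5 separated the mutants at both treatments, and all 4 EA arrays (8.99 to 10.28) lay above all 4 YF arrays (4.44 to 7.79). The difference was 3.02 with hormone (SE 0.45, limma adjusted p = 0.016), which is 8.10-fold, and 4.23 without (SE 0.45, adjusted p = 0.0057), which is 18.8-fold. Without the YF array with hormone of replicate 1, the difference with hormone was 2.42 (adjusted p = 0.030), and without replicate 2 of that group it was 3.61. Without replicate 1 or 2 of EA with hormone it was 2.95 or 3.08 and no longer passed (adjusted p = 0.070 and 0.092). Ccl9 was higher in EA than in YF cells with hormone by 1.52 (SE 0.17, adjusted p = 0.0074), or by 1.38 (adjusted p = 0.032) without that YF array. Without hormone the Ccl9 difference was 0.61 (95% interval 0.17 to 1.05, adjusted p = 0.10) and did not pass. Ccl20 was higher in EA cells with hormone by 1.40 (SE 0.03, adjusted p = 9.8e-05), or by 1.42 (adjusted p = 0.0014) without that array, and lay in the low group in both kinds of cells without hormone.

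Macrophages are another known source of Ccl5 and Ccl9. At each treatment 1 gene of their marker list was higher in EA than in YF cells and 0 were lower. Among all probe sets, 4.37% were higher and 5.8% lower in EA cells with hormone, and 5.51% and 5.25% without. Of 10 macrophage markers, 5 lay in the low group on all arrays, including the leukocyte antigen Ptprc and the defining markers Adgre1 and Itgam. The log2 of the summed level of the list was 11.1 to 11.5 in EA cells with hormone and 11.4 to 11.5 in EA cells without, against 9.64 to 9.90 in YF cells with hormone and 9.10 to 9.35 in YF cells without. The gene that passed was that of the lysosomal membrane protein Cd68, whose EA means of 11.01 with hormone and 11.24 without make up most of these sums. It was higher in EA cells by 2.73 with hormone (limma adjusted p = 0.0023) and by 3.58 without (adjusted p = 0.00098). Csf1r, the other abundant marker of the list, had differences of -0.48 with hormone and -0.28 without, and Lyz2 of -0.43 and 0.67. None of these passed (limma adjusted p = 0.31 to 0.77). Cd14, at 0.69 with hormone and 0.89 without, and Laptm5, at 0.60 and 1.36, had the sign of Cd68. They did not pass either (adjusted p = 0.19 to 0.47). The means of Lyz2 and Laptm5 lay in the low group. Without replicate 1 of YF with hormone, the differences with hormone were -0.39 for Csf1r, -0.13 for Lyz2, 0.55 for Cd14 and 0.49 for Laptm5. Of 4 dendritic cell markers, Itgax and Flt3 lay in the low group, and the log2 of the summed level was 7.65 to 7.94 in EA cells with hormone and 6.65 to 6.66 without, against 6.66 to 7.43 in YF cells with hormone and 6.43 to 6.85 without. Of these, Cd74 was higher in EA than in YF cells with hormone by 1.88 (adjusted p = 0.016), from a YF mean in the low group. Zbtb46, the most abundant of the 4 with means of 6.35 to 7.50, had differences of 0.68 with hormone and -0.07 without. Neither Zbtb46 difference passed (limma adjusted p = 0.30 and 0.96), and the first was 0.21 without replicate 1 of YF with hormone. Without the YF array with hormone of replicate 1, the differences with hormone were 2.94 for Cd68 and 2.15 for Cd74 (adjusted p = 0.0072 and 0.029). The part of these genes in the Ccl5 and Ccl9 differences was not tested.

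Ccl7 and Ccl2 did not pass between the mutants at either treatment, and their differences were above 0 with hormone and below 0 without. For Ccl7 the difference was 0.77 with hormone (95% interval 0.32 to 1.22, limma adjusted p = 0.060) and -0.79 without (interval -1.24 to -0.34, adjusted p = 0.053), and the arrays of the mutants overlapped at neither treatment. Without replicate 1 or 2 of EA without hormone the 0.77 with hormone passed (adjusted p = 0.020), and without replicate 2 the difference without hormone was -1.05 (adjusted p = 0.020). Ccl2 showed 0.63 with hormone (interval -0.56 to 1.82, adjusted p = 0.37) and -1.32 without (interval -2.50 to -0.13, adjusted p = 0.19). With replicate 1 of YF with hormone left out, the differences with hormone were 0.72 for Ccl7 and 0.70 for Ccl2 (adjusted p = 0.20 and 0.70). The Ccl2 differences passed without either YF array that had no hormone, at 0.63 with hormone (adjusted p = 0.013) and at -2.07 or -0.56 without (adjusted p = 0.0025 and 0.035). Ccl17 ran the other way, with all 4 EA arrays (7.64 to 9.18) below all 4 YF arrays (9.41 to 10.16). Its differences were -1.12 with hormone and -1.29 without (adjusted p = 0.29 and 0.27), and without replicate 2 of EA without hormone the second of these was -2.06 (adjusted p = 0.047). The first was -0.74 (adjusted p = 0.69) without replicate 1 of YF with hormone. The dimmer Ccl25 probe set gave -0.66 with hormone (adjusted p = 0.33), and -1.31 (adjusted p = 0.0025) when replicate 1 of YF with hormone was left out.

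**Figure D4:**
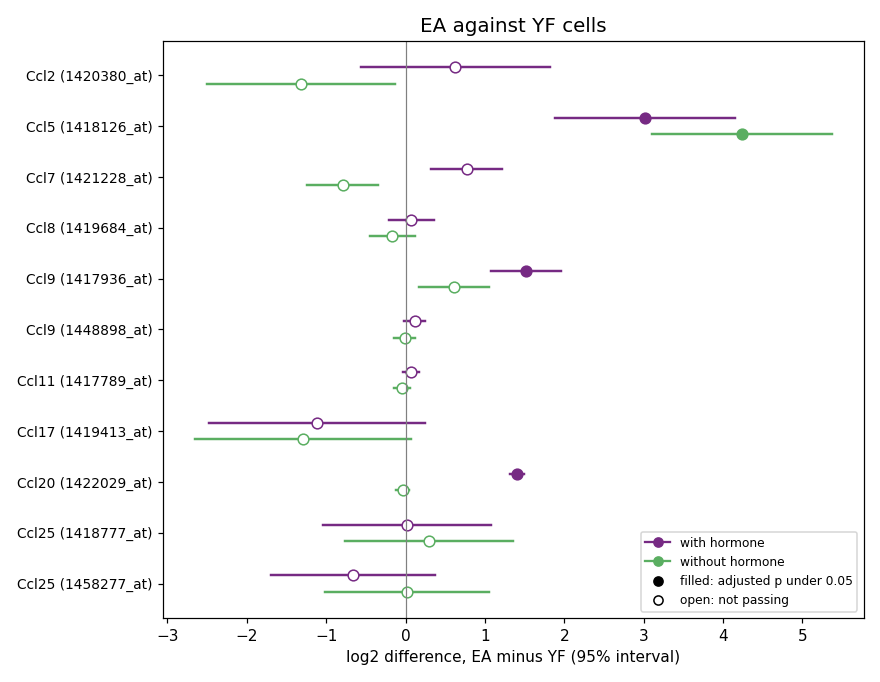
Log2 difference, EA minus YF (x axis), of the 11 CC chemokine probe sets (y axis) with hormone (upper point of each pair) and without (lower point). Lines are 95% intervals from limma with n = 2 arrays per group, and filled points passed at an adjusted p under 0.05. Ccl5 is filled at both treatments, at 3.02 and 4.23, and Ccl9 (1.52) and Ccl20 (1.40) are filled with hormone only.

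Of 13 other CC ligands, 9 had a probe set with a single symbol, and 7 of these lay in the low group on all arrays. None passed with hormone in either kind of cells by limma, and 0 had an unadjusted p under 0.05, against 5.62% of all probe sets in EA cells and 11.4% in YF cells. Ccl28, a mucosal chemokine that acts on Ccr10 and Ccr3, had 7.48 and 7.33 in EA cells with hormone and 7.34 and 6.50 in EA cells without, against 4.66 and 3.88 in YF cells with hormone and 3.68 and 3.99 in YF cells without. All EA arrays lay above all YF arrays, and the differences of 3.14 with hormone and 3.08 without passed (limma adjusted p = 0.0084 and 0.0083), the second from a YF mean in the low group. Without the YF array with hormone of replicate 1 the difference with hormone was 3.53 (adjusted p = 0.016). The other 2 Ccl28 probe sets lay in the low group. Ccl27a, a skin chemokine, ranged from 5.22 to 7.46 and passed in no comparison. Of 13 CC chemokine receptors measured, 12 lay in the low group, among them Ccr1, Ccr2, Ccr3, Ccr4, Ccr6, Ccr8 and Ccr9, which are receptors of the members. The exception was Ackr4, a scavenging receptor that binds Ccl25 without signalling through G proteins, at 12.8 to 13.3 on its 2 brighter probe sets and in the low group on its dimmest. No receptor passed in any of the 5 comparisons by limma, and 1 had an unadjusted p under 0.05 (Ackr4, -0.31 for EA against YF without hormone, where 21.2% of all probe sets had one).

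NF-kB is held in the cytoplasm by inhibitor proteins such as that of Nfkbia, which is itself an NF-kB target. Of 15 genes of NF-kB factors and inhibitors, 13 were measured. With hormone 2 were higher in EA cells and 2 in YF cells, with none lower. Over all probe sets 0.0933% were higher and 0.0422% lower in EA cells, and 0.129% and 0.0511% in YF cells. At an unadjusted limma p under 0.05, 8 of the 13 were higher in EA cells and 9 in YF cells. The shares of all probe sets in either direction were 5.62% and 11.4%. The median difference of the list was 0.95 in EA cells and 1.25 in YF cells. Nfkbia had 13.57 and 13.65 in EA cells with hormone, against 12.38 and 12.50 in EA cells without, and 13.53 and 13.57 in YF cells with hormone, against 12.32 and 12.28 in YF cells without. On this brightest probe set it rose by 1.17 in EA cells and 1.25 in YF cells (limma adjusted p = 0.014 and 0.0095). All 5 of its probe sets passed in both, with rises of 1.1 to 2.5 in EA cells and 1.1 to 3.2 in YF cells. Tnfaip3, which encodes a ubiquitin-editing inhibitor, rose by 3.71 in EA cells (adjusted p = 0.040) and had a difference of 2.51 in YF cells (adjusted p = 0.093), or of 2.85 (adjusted p = 0.097) without replicate 1 of YF with hormone. Bcl3, a nuclear member of the inhibitor family, rose by 4.05 in YF cells (adjusted p = 0.013) and had a difference of 2.19 in EA cells (adjusted p = 0.060). Leaving out replicate 1 of YF with hormone, the YF rises were 1.27 for Nfkbia and 3.82 for Bcl3 (adjusted p = 0.030 and 0.027). Between the mutants Ikbkg was the 1 gene of the list to pass with hormone, at -0.28 (adjusted p = 0.040), and it lost its call without that array (-0.23, adjusted p = 0.15). The -0.28 is that of its brightest probe set. Another Ikbkg probe set, at 11.64 to 12.41, passed in the opposite direction with hormone, at 0.68 (limma adjusted p = 0.0029). Without hormone 1 gene of the 13 was higher in EA cells, Bcl3 by 2.24 (limma adjusted p = 0.0039). The 2 lower ones were Tnfaip3 (-1.59, limma adjusted p = 0.033) and Ikbkg. The shares of all probe sets higher and lower in EA cells were 4.37% and 5.8% with hormone, and 5.51% and 5.25% without. Ikbkg was counted as lower without hormone, at -0.38 on its brightest probe set, against 0.38 on the other (limma adjusted p = 0.015 each). Its remaining probe sets passed at neither treatment, so the direction of Ikbkg between the mutants is unresolved. In the test of EA minus YF responses, no gene of the list passed by limma, and 3 of 13 had an unadjusted p under 0.05, against 9.74% of all probe sets.

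Of 21 genes of inflammatory inducers and their receptors, all were measured and 8 lay in the low group. The receptor gene Tlr2 was the 1 that rose with hormone, and none fell. Its rise was 1.64 in EA cells and 1.55 in YF cells (limma adjusted p = 0.028 and 0.027). Over all probe sets 0.0933% rose and 0.0422% fell in EA cells, and 0.129% and 0.0511% in YF cells. At an unadjusted limma p under 0.05, 4 of the 21 were higher and 2 lower in EA cells, against 5.62% of all probe sets. In YF cells 7 were higher and 1 lower, against 11.4%. The YF rise of Tlr2 became 1.46 and lost its call (adjusted p = 0.072) without replicate 1 of YF with hormone. Between the mutants 7 of the 21 passed with hormone (3 higher and 4 lower in EA cells, against 4.37% and 5.8% of all probe sets) and 5 without (3 higher and 2 lower, against 5.51% and 5.25%). Il6, counted as higher with hormone by 0.18, lay in the low group on all 8 arrays, at 2.563 to 2.785. The 7 became 4 (2 higher and 2 lower) without replicate 1 of YF with hormone, where Il1r1, Il6, Ifngr1 and Il4ra lost their calls (adjusted p = 0.062 to 0.16) and Myd88 came to pass (0.39, adjusted p = 0.047). Il1r1, the receptor of interleukin 1, was higher in EA cells by 1.53 at both treatments (adjusted p = 0.014 each), and Tlr4, the receptor of lipopolysaccharide, was lower by 2.50 with hormone and 2.12 without (adjusted p = 0.0027 and 0.0040). Without that YF array the differences with hormone were 1.41 for Il1r1 (adjusted p = 0.062) and -2.75 for Tlr4 (adjusted p = 0.0044). Of 6 genes of factors that bind or degrade chemokine mRNA, all were measured. In EA cells none passed with hormone by limma, and 2 had an unadjusted p under 0.05, against 5.62% of all probe sets. In YF cells 1 rose with hormone, against 0.129% of all probe sets. That was Zc3h12a, an endonuclease, at 2.78 from a mean in the low group (adjusted p = 0.048), with 2.07 in EA cells not passing, and it lost its call without that array (2.69, adjusted p = 0.12). Zfp36, which promotes the decay of AU-rich transcripts, was lower by 1.73 in EA cells than in YF cells, both without hormone (limma adjusted p = 0.018). Its hormone difference was -1.95 in YF cells and did not pass (adjusted p = 0.12), and was -1.70 without that array. Zfp36l2 was higher in EA cells by 0.51 at both treatments (adjusted p = 0.032 with hormone and 0.031 without). Without that array its difference with hormone was 0.39 and lost its call.

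The levels of Ccl2, Ccl7 and Ccl20 ran together over the 8 arrays. Pearson's r was 0.985 between Ccl2 and Ccl7, 0.989 between Ccl7 and Ccl20 and 0.973 between Ccl2 and Ccl20, against 0.846 between Ccl5 and Ccl9. These values describe 8 arrays that fall into 4 groups and share the treatment. The candidates were 3968 probe sets of other named genes that varied over the arrays. Among them, the pattern most like that of each of Ccl2, Ccl7 and Ccl20 was Nfkbia on 1 of its probe sets (r = 0.982, 0.989 and 0.988). Next came Tnfaip3 (0.962) and the CXC chemokine Cxcl10 (0.960) for Ccl2, Cxcl10 (0.976) and the NF-kB inhibitor gene Nfkbie (0.967) for Ccl7, and Tlr2 (0.987) and Cxcl10 (0.983) for Ccl20. The patterns most like Ccl5 were those of Clec2d (0.988), Zfp429 and Cdc14a (0.978 each). Those most like Ccl9 were Nrcam (0.980), Casp4 (0.979) and the interferon-inducible GTPase gene Gbp6 (0.978). For Ccl17 they were Nkain1 (0.945), Dnajc11 (0.936) and Atp9a (0.935), and for Ccl25 Gm20324 (0.922), Ralgapa1 (0.915) and Vps51 (0.903).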

How the data were processed

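RNA was measured on 8 Affymetrix arrays in 4 groups of 2, assigned from the labels. The authors deposited log2 expression values per probe set, and the submitters' processing notes name GCOS and RMA (versions, order, settings: not given in the sources used here). As deposited, the log2 values had medians of 2.85 to 2.94 per array, and no further normalization was applied. No detection calls were used, and the number of arrays limits the precision.

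Of 45101 probe sets, 64 controls were left out. Of the 45037 tested, 34945 carried 1 gene symbol in the platform annotation, 932 several and 9160 none, and 34741 matched the RefSeq gene table of GRCm38.p6 with 0 symbols changed. Differences were tested with limma 3.58.1 (R 4.3.3; lmFit and eBayes) in a model of 4 group means, with 4 residual and 1.26 prior degrees of freedom. There were 5 two-sided comparisons, with Benjamini-Hochberg adjustment over all 45037, and a threshold of 0.05 on the adjusted p. Every adjusted p in the text comes from limma, and differences are the first-named group minus the second. The code was tested on simulated data. Named genes were the members, Stat5a, markers, up to 4 passing genes of each list by size of change (a gene's brightest probe set standing for it) and the 3 genes most correlated with each measured member. The other receptors and ligands and Ccl27a are named to account for their lists. Members and lists were chosen with earlier results of these data known. Alternatives were quantile normalization, centring, an intensity trend, a filter on low probe sets, a floor at 4, the compared groups alone, a replicate block and leaving out each array.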

Additional observations from a re-analysis of the deposited data

Results flagged for a closer look

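The hormone response of Ccl20 differed between the mutants by a test of the difference itself. The response in EA cells minus that in YF cells was 1.44 on the log2 scale (SE 0.05, limma adjusted p = 0.022). It passed in 4 of 8 fits that each left out an array (adjusted p = 0.026 to 0.096), and it missed the threshold with an intensity trend (0.34), with the replicate block (0.17) and when dimmer probe sets were filtered out (0.073). With hormone both EA arrays (7.91 and 7.96) lay above both YF arrays (6.55 and 6.52), and without hormone all 4 arrays lay at 2.10 to 2.15.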

How the results depend on the processing

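Of the 10 calls of CC chemokine probe sets, 6 passed without each array in turn and 4 were lost without at least 1 array (Ccl2 in EA cells, Ccl7 in YF cells, the Ccl20 difference and Ccl5 with hormone). Over the single probe sets and all alternatives, 798 values stayed on their side of the threshold, 23 came to pass and 28 no longer passed. No value that passed changed its sign, while 28 that passed in neither setting did. The number of member probe sets passing for hormone in YF cells (2) became 1 with the floor at 4 and 1 with the compared groups alone, where Ccl7 had adjusted p = 0.073 and 0.20, and it was 1 to 3 when an array was left out. For the difference of the responses, the 1 call (Ccl20) became 0 with an intensity trend (adjusted p = 0.34), 0 in probe sets above the median level (adjusted p = 0.073) and 0 with the replicate block (adjusted p = 0.17), and it was 0 to 1 when an array was left out. For EA against YF without hormone, the 1 call became 2 with an intensity trend and 2 in probe sets above the median level, where Ccl7 was added as lower, and 1 to 3 when an array was left out. The Ccl2 rise in EA cells stayed at 6.74 to 6.77 and lost its call under quantile normalization (adjusted p = 0.051), the floor (0.19) and the block (0.079). In EA cells the Ccl7 rise of 5.34 lost its call in the compared groups alone (0.11), and with hormone the Ccl5 difference of 3.02 between the mutants did so there (0.063) and with the floor (0.067). Ccl2 in YF cells passed with an intensity trend (0.0046) and in probe sets above the median level (0.020). The cause of these changes was not tested. Over all probe sets, settings other than left-out arrays and crossed numbers gave 4 to 78 calls for hormone in EA cells, 1 to 115 in YF cells and 0 to 20 for the difference, against 61, 81 and 9. With the floor at 4 they gave 1988 for EA against YF with hormone and 2250 without, against 4579 and 4847.

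The replicate numbers are shared between groups, and the correlations of the replicate differences between groups ran from -0.30 to 0.37. The highest was that of EA with hormone and YF with hormone. These correlations cannot tell whether samples of the same number share more than the number. With the replicate block, 15 probe sets passed for hormone in EA cells and 21 in YF cells, against 61 and 81 without it. The EA groups had a correlation of -0.21. With their numbers crossed, an alternative chosen after seeing the data, member calls were 3, 2, 0, 3 and 3 in the 5 comparisons, in the order hormone in EA, hormone in YF, difference, EA against YF without and with hormone.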
